A study of Homo sapiens with 12 samples.

Results

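The DEAD and DEAH box proteins are enzymes that use ATP to open RNA duplexes or to strip proteins from RNA, and they take their names from a short amino acid motif in the ATP-binding core. DEAD box enzymes unwind short duplexes locally, as in translation initiation, mRNA export and ribosome assembly, whereas DEAH box enzymes move along a strand and drive the rearrangements of the spliceosome. Several need a partner protein, and a few have lent their family name to proteins with another task. The family was measured as 49 genes of the 14486 named genes on the arrays, 35 with a DDX symbol and 14 with a DHX symbol. Members were chosen by the gene symbol of the platform annotation, and the family itself was chosen with the ratios of all 3 comparisons known. The ratios below therefore describe these genes and are not independent evidence for a response of the family.

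The arrays held RNA of LNCaP, a prostate cancer cell line of human origin, in 3 conditions: untreated control cells, cells given 5 mM metformin for 24 h, and cells given 5 mM AICAR for 24 h. Metformin is a biguanide that lowers mitochondrial respiration, and AICAR is a nucleoside that cells turn into a mimic of AMP, so both activate the energy sensor AMPK by different routes. The series states 24 h for both drugs, while a legend of the study's paper gives another time for metformin. Each pair of conditions was hybridized on 2-colour arrays in 2 independent cultures with the dyes exchanged, giving 4 arrays per comparison and 12 in all. A value is a log2 ratio of 2 conditions on the same array, and the direction rests on reading each ratio as Cy5 over Cy3 with the dyes in the labels. Read so, the stress genes DDIT3, DDIT4 and SESN2 stood at 4.97, 3.28 and 2.48 for metformin against control. Because ratios hold no levels, the cell line could not be checked against its markers, and the model is 1 cell line. Array medians lay between −0.0417 and 0.051, and dye-swap partners correlated across features at −0.42 to −0.723 before their signs were aligned.

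A transcript passed when its adjusted p from limma, computed over 24541 transcripts, was below 0.05 and its log2 ratio was above 0.7 or below −0.7. By this rule 17 of the 49 members passed in at least 1 comparison and 32 in none, and 25 of the 147 member ratios passed. With metformin against control, 1 member was higher and 3 were lower, against 1.5% and 1.23% of all transcripts. With AICAR against control, 0 members were higher and 8 were lower, against 0.456% and 2.89% of all transcripts. With metformin against AICAR, 8 members were higher and 5 were lower, against 4.59% and 2.01% of all transcripts. Since the family was picked with these ratios known, nothing is read from the shares. At an unadjusted p under 0.05 in the same fit, 4 members were higher and 17 lower with metformin, 2 were higher and 22 lower with AICAR, and 16 were higher and 12 lower with metformin than with AICAR. Of all 24541 transcripts, 4305, 5120 and 6468 were under that cut in these comparisons, both directions together.

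The members spread more widely than the transcripts at large, but the family was picked with these ratios known. The median size of a member's ratio, taken without its sign, was 0.212 for metformin and 0.319 for AICAR, each against control, and 0.4 between the drugs, whereas over all transcripts it was 0.0973, 0.12 and 0.132. The same unsigned medians over all named transcripts were 0.111, 0.139 and 0.155. The signed medians of the members were −0.11, −0.21 and 0.05. Over all transcripts the signed median of AICAR against control was 0.04. With both drugs the centre of these picked genes thus lay slightly below control, with single members far from it on either side.

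**Figure D1:**
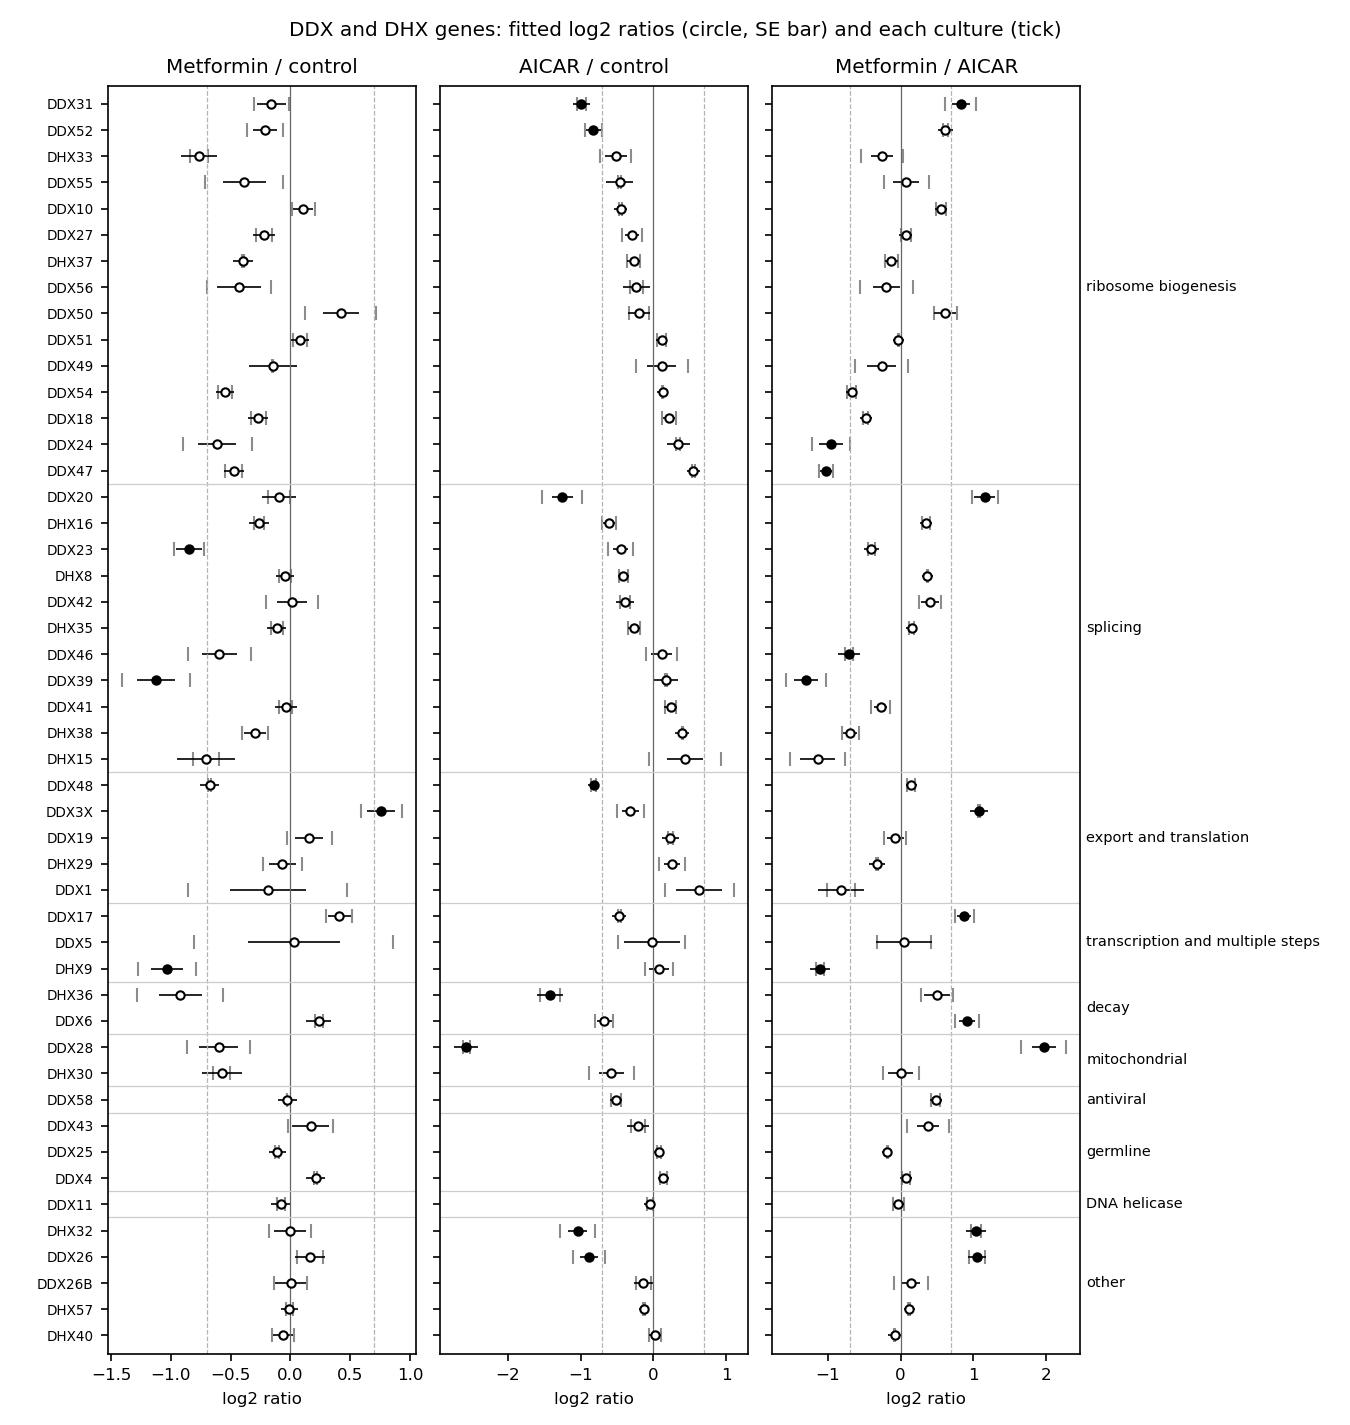
Fitted log2 ratios of 48 members in the 3 comparisons, ordered by role, with 1 row per gene. Circles are the fitted ratios with their SE, filled where the member passed, ticks are the 2 cultures and dashed lines mark 0.7 and −0.7. DDX28 lies farthest from 0, at −2.57 for AICAR against control.

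The members fell into separate patterns across the conditions. DDX20, DDX26, DDX28, DDX31 and DHX32 were lower with AICAR than in control cells and higher with metformin than with AICAR, and none of these 5 passed for metformin against control. DDX39 and DHX9 formed the opposite case, lower with metformin than in either of the other conditions. DDX3X alone was higher with metformin than in both. DDX23 passed only for metformin against control, DDX48, DDX52 and DHX36 only for AICAR against control, and DDX6, DDX17, DDX24, DDX46 and DDX47 only for metformin against AICAR. These calls are of probe averages, and 1 probe each of DDX6 and DDX17 passed singly for AICAR against control. The 3 comparisons share RNA extracts, so these patterns are not 3 separate observations.

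The sequences before the transcription starts are shown for DDX28 and DHX36, the members with the lowest passing ratios under AICAR, and for DDX39 and DHX9, those with the lowest under metformin. Each is the RefSeq window on GRCh38.p14 from 250 bases before to 50 after the start, in the direction of the gene, with capitals marking matches to the motifs described next. DDX28 lies on the minus strand at chr16:68023183-68023482, DHX36 on the minus strand at chr3:154324438-154324737, DDX39 (now DDX39A) on the minus strand at chr19:14419334-14419633, and DHX9 on the plus strand at chr1:182839097-182839396.
DDX28: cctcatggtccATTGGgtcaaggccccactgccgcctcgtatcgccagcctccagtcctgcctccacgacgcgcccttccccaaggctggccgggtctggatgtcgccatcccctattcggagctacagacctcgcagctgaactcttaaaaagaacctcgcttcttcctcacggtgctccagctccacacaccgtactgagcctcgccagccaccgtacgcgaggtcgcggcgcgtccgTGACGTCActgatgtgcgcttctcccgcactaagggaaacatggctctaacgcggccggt
DHX36: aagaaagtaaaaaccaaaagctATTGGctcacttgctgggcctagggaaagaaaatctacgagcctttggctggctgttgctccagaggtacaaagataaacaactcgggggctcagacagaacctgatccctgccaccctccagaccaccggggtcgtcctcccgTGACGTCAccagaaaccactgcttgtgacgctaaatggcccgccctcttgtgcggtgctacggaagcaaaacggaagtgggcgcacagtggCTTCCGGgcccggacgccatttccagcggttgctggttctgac
DDX39: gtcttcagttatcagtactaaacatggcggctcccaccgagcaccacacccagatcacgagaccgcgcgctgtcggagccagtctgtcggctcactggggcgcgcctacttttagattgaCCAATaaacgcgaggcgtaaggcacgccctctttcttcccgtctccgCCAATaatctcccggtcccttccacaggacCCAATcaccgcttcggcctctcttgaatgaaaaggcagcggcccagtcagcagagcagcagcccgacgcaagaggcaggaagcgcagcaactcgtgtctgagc
DHX9: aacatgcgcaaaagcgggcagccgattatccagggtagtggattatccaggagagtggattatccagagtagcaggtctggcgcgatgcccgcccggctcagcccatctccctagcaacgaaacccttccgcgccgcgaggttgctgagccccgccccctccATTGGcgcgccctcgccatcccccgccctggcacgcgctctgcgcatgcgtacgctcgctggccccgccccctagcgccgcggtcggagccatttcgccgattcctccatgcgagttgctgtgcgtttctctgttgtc

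Promoter windows were at hand for 45 of the 49 members and for 27305 genes in all, and both strands were searched. The median GC content was 61% in member windows and 58.3% in all windows. The cyclic AMP response element, TGACGTCA, occurred in 4 members, or 8.89%, and these were DDX10, DDX28, DDX51 and DHX36. It occurred in 1.98% of all windows and in 2.59% of those of protein-coding genes. In DDX28 it began at base 241 of the window and in DHX36 at base 167. Their ratios for AICAR against control were −2.57 for DDX28, −1.42 for DHX36, −0.45 for DDX10 and 0.11 for DDX51. The 2 DDX10 probes stood at 0.03 and −0.93. Whether the element bears on these ratios was not tested. The ETS core CCGGAAG was found in 17 members, or 37.8%, against 10.7% of all windows and 14.2% of those of protein-coding genes. The E-box CACGTG was found in 9 members, or 20%, against 7.43% of all windows and 8.88% of those of protein-coding genes. The CCAAT box, printed as ATTGG where it lies on the other strand, was found in 20 members, or 44.4%. Its share was 35.7% of all windows and 36.4% of those of protein-coding genes, and the DDX39 window held 3 boxes. The letters TTGCATCA, to which ATF4 and its partners can bind, were in 0 member windows. They were in 0.923% of all windows and in 0.669% of those of protein-coding genes. None of these motifs overlaps another by its letters in the 4 windows printed, and a match describes letters, not binding.

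In the metformin-treated cells, DDX39, DHX9 and DDX23 were lower and DDX3X was higher than in control cells. DDX39 encodes DDX39A, a close relative of the splicing and mRNA export helicase UAP56, and its 4 arrays read −1.37 and −1.46 in culture 1 and −0.99 and −0.68 in culture 2. All 4 were below 0, and culture 1 was the lower. The fitted ratio was −1.13 ± 0.16 (SE, 2 cultures), a 2.18-fold decrease, and its 2 probes gave −1.08 and −1.17. Tested singly, the probe at −1.17 did not pass, at an adjusted p of 0.0627 in limma. DHX9, the RNA helicase A that works in transcription, RNA processing and translation, read −0.69 and −0.97 in culture 1 and −1.17 and −1.47 in culture 2. Here culture 2 was the lower, and the fitted ratio was −1.03 ± 0.14, a 2.05-fold decrease. DDX23, the helicase that lets the tri-snRNP join the assembling spliceosome, read −0.97, −0.84, −0.85 and −0.61, with the cultures overlapping. Its fitted ratio was −0.85 ± 0.11. Adjusted p-values from limma for DDX39, DHX9 and DDX23 were 0.038, 0.032 and 0.029.

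DDX3X, which helps ribosomes start on mRNAs with structured leaders, read 0.78 and 0.9 in culture 1 and 0.59 and 0.58 in culture 2. All arrays were above 0 and culture 1 was the higher. The fitted ratio was 0.76 ± 0.12, a 1.69-fold increase, with an adjusted p of 0.045 in limma. The next members at the top did not pass: DDX50, a nucleolar helicase, stood at 0.42, with 0.64 and 0.83 in culture 1 and 0.32 and −0.06 in culture 2. DDX17, a partner of transcription factors, stood at 0.41, with 0.10 and 0.40 in culture 1 and 0.38 and 0.54 in culture 2. With only the direct ratios of the comparison, DDX39, DHX9, DDX23 and DDX3X all lost the call, at adjusted p-values of 0.128, 0.116, 0.0893 and 0.117 in limma. In that fit 0 of the 24541 transcripts passed for this comparison, while 3948 of them and 19 members had an unadjusted p under 0.05. DDX39 at −1.02 and DDX3X at 0.93 also lost the call when the 3 arrays of differing slide numbers were left out, at 0.0585 and 0.108. All 3 are of culture 1, both arrays of metformin against control and the array of AICAR against control with AICAR in Cy5. This setting therefore leaves culture 1 no direct ratio of metformin to control, and cannot tell slide number from culture. Leaving out a single array ended the call of DDX39 for 3 arrays and that of DDX3X for 6 arrays. The call of DHX9 ended for 1 array, the culture 1 array of metformin against control with control in Cy5 (adjusted p 0.0548 in limma).

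Further members were low without passing. DHX36, which resolves G-quadruplexes in RNA and DNA, stood at −0.92 ± 0.18, and its arrays read −0.53 and −0.5 in culture 1 and −1.56 and −1.2 in culture 2. The cultures did not overlap, and the adjusted p in limma was 0.072. DHX33, a nucleolar helicase of rRNA synthesis, stood at −0.77 with arrays from −0.85 to −0.62 and an adjusted p of 0.076. DDX48, the exon junction helicase EIF4A3, stood at −0.68 with arrays from −0.85 to −0.55. It had an adjusted p of 0.023, with a ratio smaller than the size required.

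**Figure D2:**
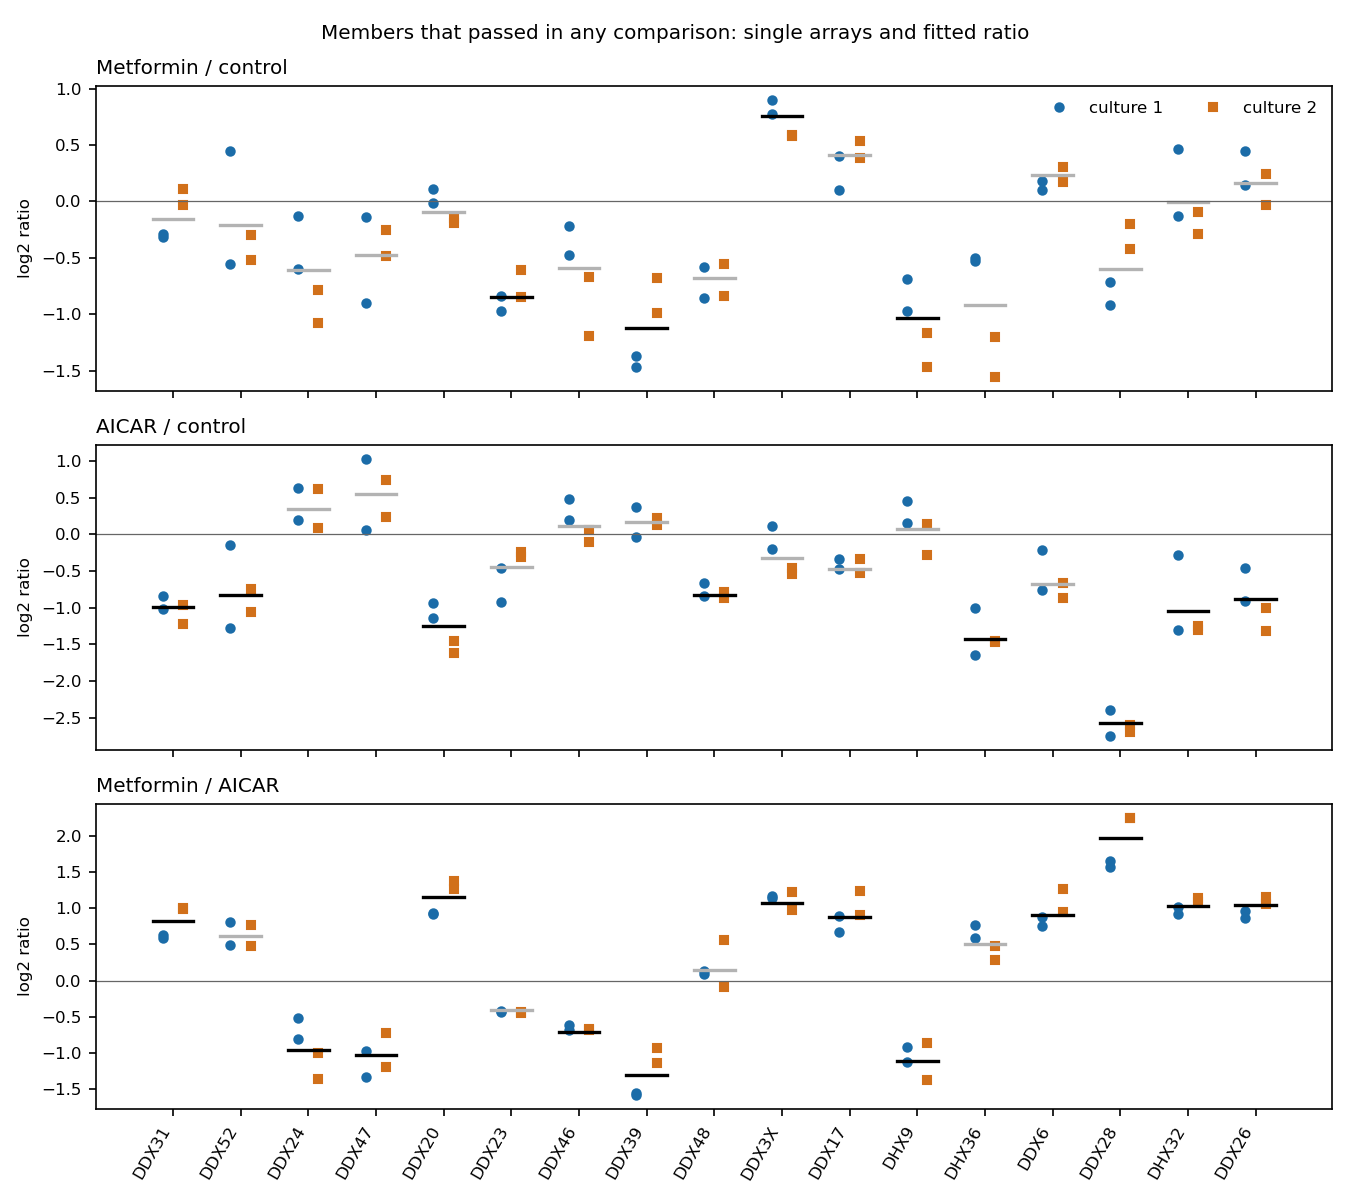
Single-array log2 ratios of the 17 members that passed in any comparison, with culture 1 as circles, culture 2 as squares and the fitted ratio as a bar, black where it passed. For AICAR against control, the 4 DDX28 arrays lie between −2.75 and −2.40, below those of every other member drawn.

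In the AICAR-treated cells, 8 members were lower than in control cells and none was higher. DDX28, a mitochondrial helicase that acts in assembly of the large subunit of the mitochondrial ribosome, read −2.75 and −2.40 in culture 1 and −2.59 and −2.70 in culture 2. The 4 arrays lay close together, and the fitted ratio was −2.57 ± 0.17, a 5.93-fold decrease with an adjusted p of 0.0078 in limma. DHX36 read −1.65 and −1.01 in culture 1 and −1.47 and −1.46 in culture 2, and its fitted ratio was −1.42 ± 0.18. DDX20, known as Gemin3 in the SMN complex that builds splicing snRNPs, read −0.93 and −1.14 in culture 1 and −1.62 and −1.46 in culture 2. Culture 2 was the lower on both arrays, and the fitted ratio was −1.25 ± 0.14, a 2.38-fold decrease.

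The other 5 lay nearer to the limit. DDX31, a nucleolar helicase, read −1.02 and −0.83 in culture 1 and −1.23 and −0.97 in culture 2, with a fitted ratio of −0.99 ± 0.12. DDX48 read −0.67, −0.84, −0.86 and −0.79, the narrowest range of the 8, with a fitted ratio of −0.82 ± 0.08. DDX26 carries an old DEAD box name for INTS6, a subunit of the Integrator complex that cleaves nascent RNA. It read −0.46 and −0.91 in culture 1 and −1.0 and −1.32 in culture 2, with a fitted ratio of −0.89 ± 0.12 and culture 2 the lower. DHX32, a DEAH box protein of less clear function, read −1.3 and −0.28 in culture 1 and −1.3 and −1.25 in culture 2. Only 1 array stood apart, and the fitted ratio was −1.04 ± 0.14. DDX52, whose yeast relative acts in small ribosomal subunit assembly, read −1.28 and −0.14 in culture 1 and −1.06 and −0.74 in culture 2. Its dye-swap partners in culture 1 were farther apart than the cultures, and the fitted ratio was −0.83 ± 0.1.

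The adjusted p-values of the 8 in limma ran from 0.0078 for DDX28 to 0.03 for DDX26. The count rests in part on 1 array, the culture 1 array of AICAR against control with AICAR in Cy5, without which it was 5. Without that array, DHX36 at −1.31, DHX32 at −0.87 and DDX52 at −0.64 had adjusted p-values of 0.0505, 0.123 and 0.148 in limma. The count was also 5 when the 3 arrays of differing slide numbers were left out. At the upper end, DDX1, a helicase of the tRNA ligase complex, stood at 0.63 ± 0.32, and its arrays read 1.04 and 1.11 in culture 1 and 0.22 and 0.12 in culture 2. DDX47, an rRNA processing helicase, stood at 0.55 with an adjusted p of 0.038, under the size required, and its arrays read 1.03 and 0.06 in culture 1 and 0.74 and 0.24 in culture 2. DHX15, the helicase that takes spent spliceosomes apart, stood at 0.44, with 0.41 and 1.46 in culture 1 and −0.08 and 0.003 in culture 2. None of these 3 passed.

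Set against each other, the drugs separated 13 members. DDX28 read 1.65 and 1.57 in culture 1 and 2.25 and 2.24 in culture 2, and its fitted ratio of metformin to AICAR was 1.97 ± 0.17, or 3.91-fold. Culture 2 was the higher by more than the gap between dye-swap partners. DDX20 read 0.93 and 0.92 in culture 1 and 1.38 and 1.26 in culture 2, with a fitted ratio of 1.16 ± 0.14. DDX3X read 1.14, 1.17, 0.97 and 1.22, with the cultures overlapping and a fitted ratio of 1.08 ± 0.12, or 2.11-fold. DDX26 read 0.97, 0.86, 1.16 and 1.06, with a fitted ratio of 1.05 ± 0.12. DHX32 read 0.92, 1.02, 1.09 and 1.15, with a fitted ratio of 1.04 ± 0.14. All arrays of these 5 members were above 0.

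DDX6, which represses translation and promotes decapping of mRNA, read 0.75 and 0.88 in culture 1 and 0.95 and 1.26 in culture 2, with a fitted ratio of 0.91 ± 0.1. DDX17 read 0.67, 0.89, 0.9 and 1.23, with a fitted ratio of 0.88 ± 0.1. DDX31 read 0.59 and 0.63 in culture 1 and 1 and 0.99 in culture 2, with a fitted ratio of 0.83 ± 0.12. All 12 of these values were above 0. In all 3, however, the probes of the gene did not agree, as set out further on.

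On the lower side, DDX39 read −1.58 and −1.55 in culture 1 and −1.14 and −0.93 in culture 2, with a fitted ratio of −1.30 ± 0.16. DHX9 read −0.91, −1.12, −0.85 and −1.37, with a fitted ratio of −1.11 ± 0.14. DDX47 read −0.97, −1.32, −0.73 and −1.2, with a fitted ratio of −1.02 ± 0.08. These 3 stood clear of 0 on all arrays. DDX24, whose yeast relative acts in large ribosomal subunit assembly, read −0.51 and −0.8 in culture 1 and −1 and −1.36 in culture 2, with a fitted ratio of −0.96 ± 0.16. DDX46, a helicase of early spliceosome assembly, read −0.68, −0.61, −0.67 and −0.69. No array of DDX46 reached −0.7, and the fitted −0.71 ± 0.14, which also uses the route through the control extracts, passed at an adjusted p of 0.046. DHX15 stood at −1.14 ± 0.24 with arrays of −1.51 and −1.53 in culture 1 and −0.83 and −0.66 in culture 2, and did not pass, at an adjusted p of 0.052 in limma. With direct ratios only, DDX24 and DDX31 lost the call at adjusted p-values of 0.0612 and 0.0545, and DDX46 at −0.66. DHX32 lost it at 0.0637 without the culture 1 array that carries AICAR against control with AICAR in Cy5, and DDX24 without the culture 1 array of metformin against control with control in Cy5.

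Among the members grouped by role, the 15 ribosome biogenesis helicases had a median of −0.27 for metformin against control. Of them 12 were below 0, where 50.1% of all transcripts were. None of the 15 passed there. The lowest were DHX33 at −0.77, DDX24 at −0.61 and DDX54 at −0.55, and the highest DDX50 at 0.42. With AICAR the group parted. DDX31 and DDX52 were lower and passed, whereas 6 of the 15 were above 0, among them DDX47 at 0.55, DDX24 at 0.34 and DDX18 at 0.21. The other 9 were below 0, where 39.6% of all transcripts were. Between the drugs, DDX31 was higher with metformin and DDX24 and DDX47 were lower.

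The 11 splicing members showed a similar split. For metformin against control 10 of them were below 0, where 50.1% of all transcripts were. Over the alternatives between 8 and 11 of the 11 were negative. The median was −0.26, with DDX39 and DDX23 passing. With AICAR 6 were below 0, where 39.6% of all transcripts were, and DDX20 alone passed. The DEAH helicases of the catalytic spliceosome did not pass in either comparison with control: DHX16, which starts the first step, stood at −0.26 with metformin and −0.61 with AICAR. DHX38, which acts between the steps, stood at −0.30 with metformin and 0.40 with AICAR. DHX8, which frees the spliced mRNA, stood at −0.05 with metformin and −0.41 with AICAR. DHX38 against DHX16 and DHX8 thus had opposite signs under AICAR.

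The 14 genes with DHX symbols were all below 0 for metformin against control, with a median of −0.28, although only DHX9 passed. Over all transcripts 50.1% were below 0. The sign of the smaller ratios depended on the setting, since between 9 and 14 of the 14 were negative over the alternatives, with medians from −0.33 to −0.24. Of the 35 DDX genes, 21 were below 0 with metformin, with a median of −0.10. With AICAR, 9 of the 14 DHX genes and 21 of the 35 DDX genes were below 0, where 39.6% of all transcripts were.

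The remaining roles held few members. The 2 mitochondrial helicases were both below control with both drugs. DDX28 stood at −0.60 with metformin, where its arrays ran from −0.91 to −0.20, and at −2.57 with AICAR, whereas DHX30, which works in mitochondrial RNA granules, stood at −0.57 with each drug. Only the DDX28 value with AICAR passed. DDX58, the viral RNA sensor RIG-I, stood at −0.03 with metformin and −0.51 with AICAR. For AICAR it had an adjusted p of 0.037, under the size required, and its 4 arrays ran from −0.81 to −0.40. The 3 germline members DDX4, DDX25 and DDX43 stayed between −0.21 and 0.21 against control with either drug. DDX11, a DNA helicase of sister chromatid cohesion, stood at −0.08 and −0.05. DDX19, which releases exported mRNA at the nuclear pore, and DHX29, which helps ribosomes scan, stood at 0.23 and 0.25 with AICAR without passing. DDX10, DDX26B, DDX27, DDX41, DDX49, DDX51, DDX55, DDX56, DHX35, DHX37, DHX40 and DHX57 lay between −0.46, for DDX55 with AICAR, and 0.24, for DDX41 with AICAR, in both comparisons with control. By their averaged ratios, they and DDX3Y did not pass in any comparison, although 1 probe of DDX10 did when tested singly.

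**Figure D3:**
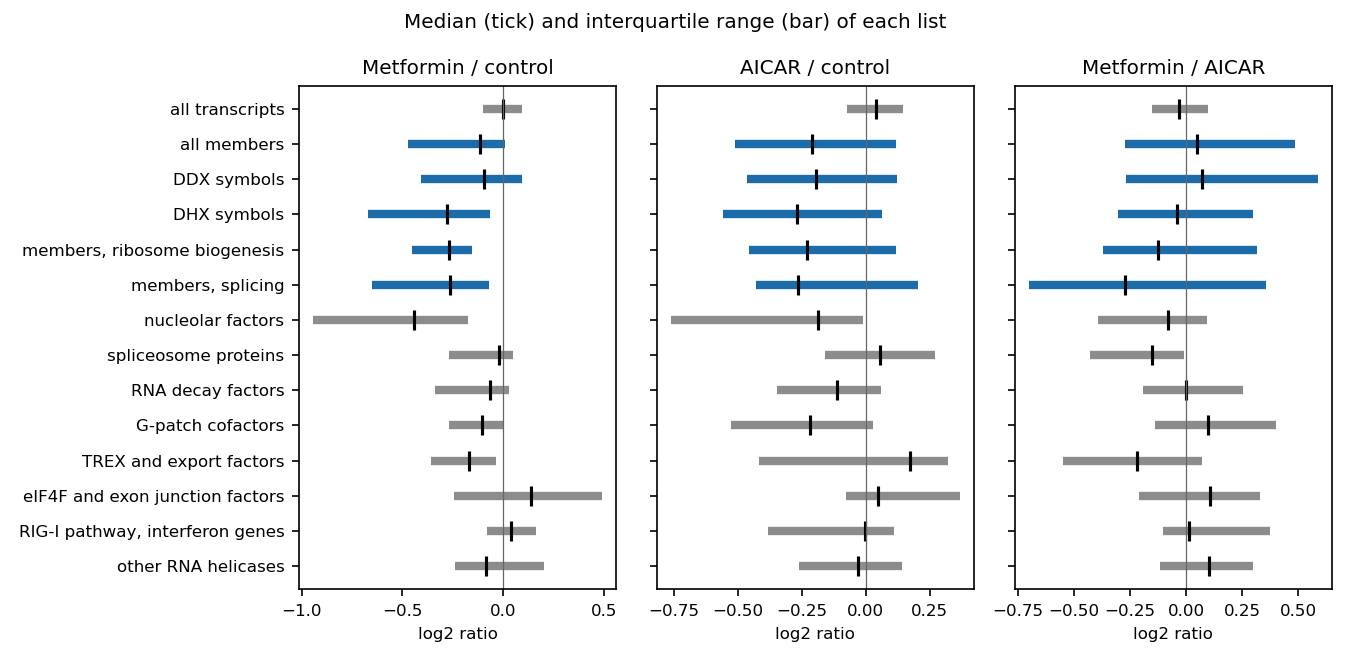
Median (tick) and interquartile range (bar) of the log2 ratios of all transcripts, of the members and of lists of genes that work with them, in the 3 comparisons. For metformin against control, the nucleolar factors lie lowest, with a median of −0.44, and the ribosome biogenesis and splicing members have medians of −0.27 and −0.26.

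Genes that work with the members were taken from lists set down with earlier results known. Of 43 measured nucleolar and small subunit processome factors, 13 were lower with metformin and 0 were higher, where 1.23% of all transcripts were lower. Their median was −0.44 and 41 were below 0, as were 50.1% of all transcripts. The lowest were BOP1, a large subunit assembly factor, at −1.75, NOP16 at −1.54 and the abundant nucleolar protein NCL at −1.19. With AICAR 10 were lower and 0 higher, where 2.89% of all transcripts were lower, led by UTP3 at −2.31 and RRS1 at −2.14. The count of 13 became 4 when the 3 arrays of differing slide numbers were left out and 0 with direct ratios only. It was 7 without the culture 1 array of AICAR against control with AICAR in Cy5, and 8 without the culture 2 array of metformin against AICAR with metformin in Cy5. Between the drugs, 3 of the 43 were higher with metformin and 6 lower.

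Fewer genes passed in the other lists. Over all transcripts, 1.5% were higher and 1.23% lower with metformin, and 0.456% and 2.89% with AICAR. For metformin against AICAR these shares were 4.59% and 2.01%. Of 19 G-patch proteins, which activate DHX15 and its kin, 0 passed with metformin, and 4 were lower with AICAR, GPANK1 at −1.28, RBM5 at −0.99, NKRF at −0.97 and GPKOW at −0.86. That count became 1 with scaled arrays. Between the drugs RBM5 at 1.19, GPKOW at 1.05 and GPANK1 at 1.04 were higher with metformin and CHERP at −0.80 was lower, the last a call lost when the 3 arrays of differing slide numbers were left out. Of 32 RNA decay factors, 4 were lower with AICAR, including the exosome subunits EXOSC3 and EXOSC6, both at −1.80. Between the drugs, EXOSC6 at 2.14, EXOSC3 at 1.27, EXOSC1 at 0.86 and CNOT2 at 0.79 were higher with metformin and 0 were lower. With metformin against control 1 was higher, EXOSC1 at 0.91, and 2 were lower, EXOSC9 at −0.99 and EXOSC2 at −0.76. These metformin counts became 0 and 0 when the 3 arrays of differing slide numbers were left out, with direct ratios only, and without the culture 2 array of metformin against AICAR with metformin in Cy5. The lower count was 0 or 1 without any of 4 further arrays, 2 of AICAR against control and 1 of each other comparison. Among 14 eIF4F and exon junction genes, CASC3 at 0.88 and PDCD4, an inhibitor of the helicase EIF4A1, at 0.87 were higher with metformin. That count became 0 with direct ratios only and without the culture 1 array of metformin against control with control in Cy5. It was 1 with scaled arrays, when the 3 arrays of differing slide numbers were left out, and without some other single arrays. CASC3 and PDCD4 were also higher with metformin than with AICAR, where EIF4E at −1.41 and EIF4A1 at −1.35 were lower. The lower count became 1 with scaled arrays, when the 3 arrays of differing slide numbers were left out, and without some single arrays. Of 14 export factors, NXT1 at −0.86 was lower with AICAR, and SARNP at −1.01, ALYREF at −0.85 and NXF1 at −0.72 were lower with metformin than with AICAR, where MCM3AP at 0.70 was higher. NXT1 and MCM3AP lost the call when the 3 arrays of differing slide numbers were left out and with several single arrays left out. With direct ratios only, the count of 3 lower between the drugs became 1. Of 28 spliceosome proteins, SYF2 was higher with AICAR, at 1.17, and 0 passed otherwise. SYF2 lost the call with scaled arrays and when the 3 arrays of differing slide numbers were left out. Leaving out the culture 1 array of AICAR against control with AICAR in Cy5 also ended it. In a further list of 16 RNA helicases outside the DDX and DHX names, which does not hold EIF4A1, 1 passed: SNRNP200, which unwinds snRNAs in the spliceosome, at −0.89 for metformin against AICAR. SNRNP200 lost the call in the same settings as SYF2, and without the culture 1 array of metformin against control with metformin in Cy5. In the RIG-I and interferon list of 30 genes, ISG20 was higher with metformin, at 1.36, and IRF9 was lower with AICAR, at −0.77. ISG20 lost that call with direct ratios only, and IRF9 without the culture 1 array of AICAR against control with control in Cy5. Between the drugs, ISG20 at 1.70, IFIT2 at 1.26 and RNF135 at 0.94 were higher with metformin and 0 were lower.

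The cultures did not always agree. Members had the same sign in both cultures in 37 of 49 cases with metformin, 43 with AICAR and 39 between the drugs. Over all transcripts these shares were 61.7%, 68.3% and 70.3%. DDX5, a partner of DDX17 in transcription and splicing, was the widest case, at 0.75 and 1.17 in culture 1 and −0.68 and −0.88 in culture 2 for metformin against control. Its mean of 0.03 ± 0.38 therefore describes neither culture. DDX1 read 0.50 and 0.52 in culture 1 and −0.74 and −1.0 in culture 2, and DDX42 and DDX43 were also of opposite sign on all arrays of the 2 cultures. For AICAR against control this was so only for DDX49, at −0.07 and −0.45 in culture 1 and 0.70 and 0.26 in culture 2. Between the drugs it was so for 7 members, DDX5, DDX19, DDX49, DDX51, DDX55, DDX56 and DHX30. Over all transcripts, such opposite signs were found in 8.73% with metformin, 6.17% with AICAR and 7.31% between the drugs.

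**Figure D4:**
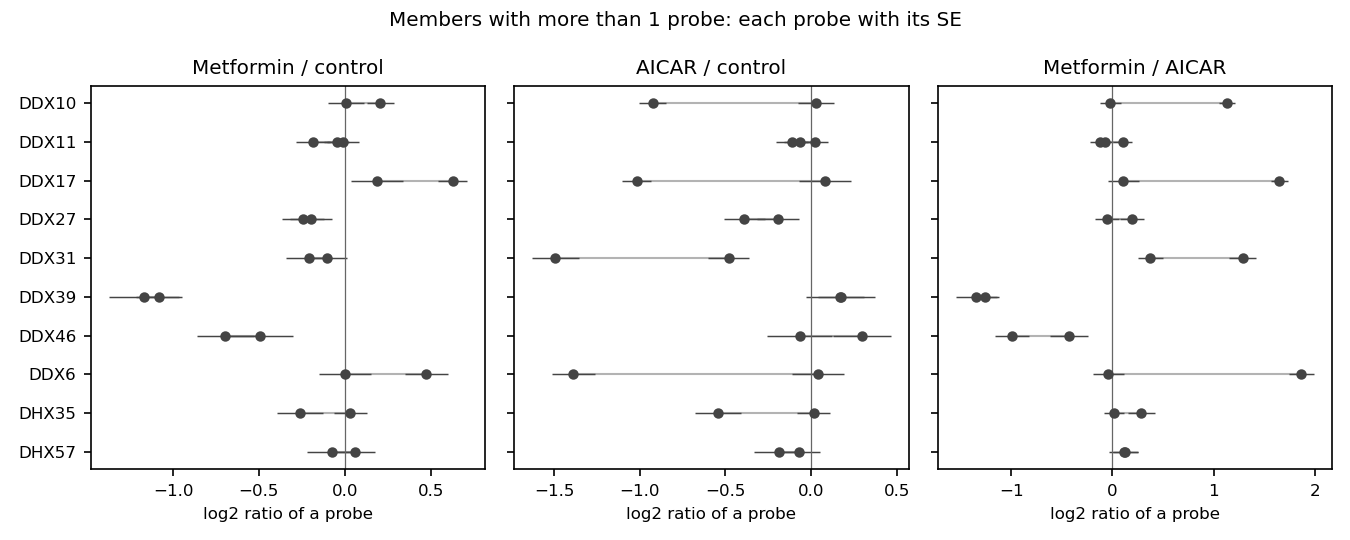
Fitted log2 ratios, with SE, of each probe of the 10 members that had more than 1, joined by a line per gene. For metformin against AICAR the probes of DDX6 stand at −0.04 and 1.86 and those of DDX17 at 0.10 and 1.65, while the DDX39 probes lie together.

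Probes disagreed within some genes. Of the 10 members with more than 1 probe, DDX6, DDX17, DDX31 and DDX10 had probes that differed by more than 1 on the log2 scale in at least 1 comparison. For AICAR against control the probes of DDX6 stood at −1.39 and 0.04, those of DDX17 at −1.02 and 0.08, and those of DDX31 at −1.49 and −0.48. For metformin against AICAR, one DDX10 probe stood at −0.02 and the other at 1.13. Averaging thus gave each of these genes a ratio that neither probe showed, and in DDX6, DDX17 and DDX31 only 1 of the 2 probes lay beyond 0.7 where the gene passed. The same held for DDX46, whose probes stood at −0.43 and −0.99 for metformin against AICAR, where the gene passed at −0.71. The DDX6 probe near 0 was named by its RefSeq transcript, and the other by gene symbol only. Which transcript each probe reads was not tested. The 39 members with a single probe, DDX28, DHX36, DDX20 and DHX9 among them, have no such check.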

How the data were processed

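RNA of LNCaP cells was hybridized on 12 two-colour oligonucleotide arrays. The authors deposited log ratios, read here as log2, normalized in limma by print-tip loess on each slide and by quantiles across the slides. Log base, direction, image analysis, background correction and limma version are not given in the sources used here. Probes of a symbol were averaged, which left 24541 transcripts from 27648 features.

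Ratios were turned to 1 direction, dye-swap partners averaged to 6 ratios, and these reduced by least squares to the levels of each culture's extracts, which adds the indirect route through the remaining condition. limma 3.58.1 in R 4.3.3 fitted treatment with culture as a replicate block. Ratios exist only within a culture, so every comparison is paired by culture. Variances were moderated (2 residual and 2.88 prior degrees of freedom), and p-values were adjusted by Benjamini-Hochberg over all transcripts. The fit was also run on simulated data, from which no conclusion is drawn here. The number of arrays limits the precision.

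Members and lists were chosen with earlier results of these data known. By rule, array values are given for members that passed and for the 3 highest and 3 lowest of a comparison, members whose probes differ by more than 1 are named, and other genes are named only from the lists where they passed. Alternatives were adjusted p alone, direct ratios only, 6 dye-swap means, 12 arrays with and without a dye term, centred or scaled arrays, robust variances, single probes, named transcripts only, and leaving out 3 arrays with slide numbers apart, each array or each culture. RefSeq promoter windows were searched for fixed motifs.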

Additional observations from a re-analysis of the deposited data

Results flagged for a closer look

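For AICAR against control, 1 of the 4 arrays of DHX32 lay far from the rest, at −0.278, while the other 3 read −1.25 to −1.30. It is the culture 1 array with the control RNA in Cy5. The gap took 0.948 of the range of the 4 values, above the limit of Dixon's test for 4 values. In all, 32 sets of 4 arrays were examined for members, of which chance would mark about 1.6.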

How the results depend on the processing

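The paired fit, with culture as a replicate block, gave member medians of −0.11, −0.21 and 0.05, and counts of 1 up and 3 down for metformin, of 0 and 8 for AICAR, and of 8 and 5 between the drugs. A fit without the block was not possible, because ratios exist only within a culture.

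Of the 25 ratios that passed, 14 also passed under the 22 alternatives fitted to gene averages, and 0 changed sign there. Tested singly, 1 probe each of DDX6, DDX17 and DDX46 for metformin against AICAR, at −0.04, 0.10 and −0.43, and of DDX31, at 0.38 there and −0.48 for AICAR, did not pass, and that of DDX6 had the opposite sign. For metformin against control, 1 DDX39 probe, at −1.17, did not pass either, at an adjusted p of 0.0627 in limma. Conversely, for AICAR against control 1 probe each of DDX6, DDX17 and DDX10 passed singly, at −1.39, −1.02 and −0.93. Their adjusted p-values in limma were 0.014, 0.012 and 0.013, while the averages of these genes did not pass there. The same DDX10 probe passed for metformin against AICAR, at 1.13. With adjusted p alone, members higher with AICAR were 1 and members lower were 5 with metformin and 8 for metformin against AICAR. Direct ratios only gave 0 higher and 0 lower with metformin. Members lower with metformin were 5 with 6 dye-swap means and 6 with 12 arrays, with or without a dye term. Scaled arrays gave 0 higher with metformin. When the 3 arrays of differing slide numbers were left out, 0 rose under metformin and 5 fell under AICAR.

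Leaving out single arrays gave 0 to 1 up and 2 to 4 down for metformin, 0 to 1 up and 5 to 9 down for AICAR, and 7 to 9 up and 5 to 6 down between the drugs. Leaving out an array or a culture, the medians ran from −0.18 to −0.06, from −0.23 to −0.13 and from −0.058 to 0.090. The least stable call was DDX46 for metformin against AICAR, which passed in 8 of 22 alternatives, followed by DDX3X and DDX39 for metformin against control, in 13 and 16. Counts of the partner lists moved by over 1.5 times in 69 of 484 cases. The causes were not tested. Depth is not known for array ratios, and signal over background was not analysed here.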

Other observations

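Probes of 3 further genes carry DDX or DHX symbols today but older names in the platform annotation, so they are outside the members. They were taken by name after the values had been computed, and none passed. DDX39B, the paralogue of DDX39A, stood at −0.36 with metformin, 0.48 with AICAR and −0.84 for metformin against AICAR. DHX58, a regulator of RIG-I, stood at −0.06, 0.41 and −0.46, the last with an adjusted p of 0.049 in limma. DDX53, a cancer-testis gene, stood at 0.06, −0.62 and 0.68.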
